A study of Mus musculus with 10 samples.

Results

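The genes described here are 10 genes of the vascular endothelium, the cell layer that lines blood vessels, out of 54532 genes in a mouse retina expression table. They were taken by name, not by their values. *Icam1*, *Vcam1*, *Sele* and *Selp* encode leukocyte adhesion receptors, *Cldn5*, *Ocln*, *Tjp1*, *Cdh5* and *Pecam1* encode junction proteins, and *Plvap*, which encodes a diaphragm protein of fenestrae and caveolae, was kept apart from both sets. The study asked how the neural retina responds to damaging light. Neural retinas came from 2-month-old mice of the albino BALB/c strain, with no genetic alteration named. After 12 hr of dark adaptation, all mice spent 1 day in non-reflective cages, either in normal light of 200 lux (NL, 5 samples, numbered 1, 4, 5, 7 and 8) or in LED light of 15000 lux (LD, light damage, 5 samples, numbered 1, 4, 6, 7 and 8). RNA was sequenced from whole neural retina, in which endothelial cells are a small part.

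Retinal vessels form the inner blood-retina barrier. Claudin-5 and occludin seal the cleft between neighbouring endothelial cells as tight junction proteins, ZO-1 (*Tjp1*) ties them to actin, and VE-cadherin (*Cdh5*) and PECAM-1 hold the lateral contacts. When endothelium is activated, for example by tumour necrosis factor or interleukin-1, it displays E-selectin (*Sele*) and P-selectin (*Selp*), on which leukocytes roll, and ICAM-1 and VCAM-1, to which leukocyte integrins bind firmly. *Icam1* and *Vcam1* are not restricted to endothelium, since glia and pigment epithelium can make them too, and *Tjp1* is made by most cells that form junctions.

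Values are FPKM, fragment counts scaled to transcript length and library size, as the authors deposited them, where the library size held a factor per retina (0.951 to 0.968 in NL, 1.04 to 1.07 in LD). Library depth recovered from the table ran from 21343389 to 26832535 reads in NL and from 18965090 to 23378090 in LD. The 8 rod photoreceptor markers, among them *Gnat1* (mean 2874 FPKM in NL and 464 in LD), *Nrl* and *Prph2*, were all lower in LD, and their summed level went from 9732 to 11855 FPKM in NL to 1520 to 2992 in LD. In whole tissue, fewer cells of a type and less RNA per cell cannot be told apart, and a fall of such abundant transcripts moves the share left for every other gene. The library pairs LD-4 with LD-6, NL-5 with NL-7 and LD-1 with LD-7, were closer to each other (chi-square per gene 2.52 to 3.41) than the other 17 pairs within a group (10.9 to 38.5). All pairs differed by more than sampling noise, which cannot tell whether the libraries of a pair share an animal or a preparation. Every library was kept. The study describes the samples of a group as biological replicates, and the labels do not say which mice each came from.

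*Icam1* and *Vcam1* were higher in LD than in NL, while none of the 5 junction genes passed the same test. *Sele* was near its detection limit and *Selp* had no read in NL. Calls required a change of more than 2-fold and an adjusted p below 0.01 in limma on log2(FPKM + 0.1), with p-values adjusted over all 24508 genes that reached 0.1 FPKM in 5 or more retinas. Of the 4 adhesion genes, 2 passed the filter and both were called higher, and all 5 junction genes passed it with 0 called. Among all genes tested, 4.13% were called higher and 2.37% lower, 6.51% in either direction.

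**Figure D1:**
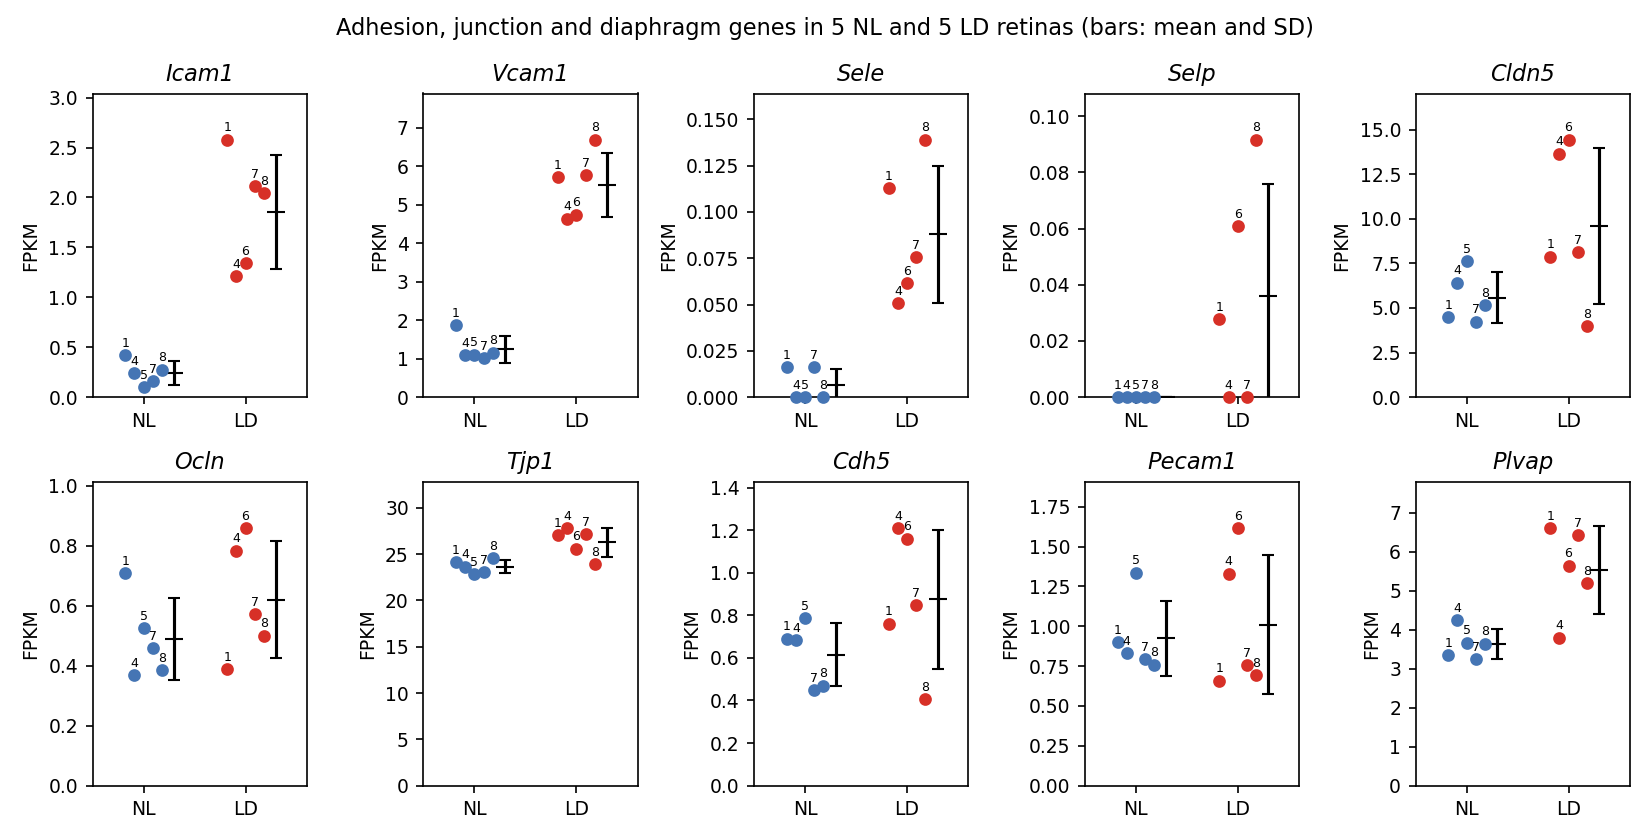
FPKM of each of the 10 genes in every retina, 1 panel a gene with its own linear axis from 0, NL on the left and LD on the right. Points are retinas with their number beside them, and the bar gives the mean and SD of 5, ending at 0 for *Sele* and *Selp*. In *Icam1*, *Vcam1* and *Sele* the lowest LD point lies above the highest NL point, and in the other 7 panels the groups overlap.

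Of the adhesion receptors, *Icam1* (ENSMUSG00000037405, GRCm38 chromosome 9, 21015985 to 21028817, plus strand) encodes the ligand of the β2 integrins LFA-1 and Mac-1. It was at 0.418, 0.238, 0.102, 0.162 and 0.276 FPKM in NL retinas 1, 4, 5, 7 and 8, and at 2.58, 1.21, 1.34, 2.11 and 2.04 FPKM in LD retinas 1, 4, 6, 7 and 8, the order used for every gene here. The lowest LD retina thus had several times the level of the highest NL retina. The mean went from 0.239 ± 0.121 FPKM (SD, n = 5) to 1.86 ± 0.570 (SD, n = 5). In limma this was a log2 fold change of 2.55 (SE 0.29, 95% interval 1.91 to 3.19, adjusted p = 9.73e-05). NL rested on 9 to 39 reads a library and LD on 107 to 274. The size depends on the pseudocount at these low levels, with a log2 fold change of 1.19 at a pseudocount of 1 FPKM.

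*Vcam1* (ENSMUSG00000027962, chromosome 3, 116109949 to 116129688, minus strand) encodes the ligand of the integrin VLA-4. Its level was 1.87, 1.09, 1.11, 1.01 and 1.16 FPKM in the NL retinas and 5.71, 4.64, 4.74, 5.76 and 6.68 FPKM in the LD retinas. NL-1 stood above the other NL retinas, for *Vcam1* as for *Icam1*, and still lay well below every LD retina. Means were 1.25 ± 0.350 FPKM in NL and 5.51 ± 0.841 in LD (SD, n = 5 each), and limma gave a log2 fold change of 2.08 (SE 0.16, 95% interval 1.71 to 2.44, adjusted p = 8.65e-06). Groups with no overlap and LD on top were found for 11.8% of all genes tested. *Icam1* and *Vcam1* were called under each of the 25 alternative settings.

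*Sele* (ENSMUSG00000026582, chromosome 1, 164048234 to 164057677, plus strand), which encodes E-selectin, made mainly by activated endothelium, did not pass the filter on low values. Its reads numbered 1, 0, 0, 1 and 0 in the NL retinas and 8, 3, 4, 5 and 9 in the LD retinas. Every LD library had more reads than any NL library, although the most abundant still had only 0.139 FPKM. Over the group, 29 LD reads against 2 NL reads gave a ratio of 14.2 after scaling to library depth, with an exact 95% counting interval of 3.60 to 123 that covers counting error only. A two-sided exact permutation test of the single gene gave p = 0.00794, the smallest that 5 against 5 retinas allow. With no filter beyond a read in 1 retina, limma gave *Sele* a log2 fold change of 0.80 (adjusted p = 0.00361), past the p threshold and under the fold threshold. Of the 11894 genes that had a read but were not tested, 1.19% had every LD retina above every NL retina.

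*Selp* (ENSMUSG00000026580, chromosome 1, 164115264 to 164150026, plus strand) encodes P-selectin, which endothelium and platelets store ready for release. All NL retinas were at 0 reads, and the LD retinas had 3, 0, 6, 0 and 9 reads. LD-4 and LD-7 were at 0, as in NL, so the groups overlapped. Set against 3 reads over the NL group, an upper limit for a count of 0, the 18 LD reads were 5.89-fold higher after scaling to library depth. This limit takes the 18 LD reads as exact. The exact permutation test over retinas gave p = 0.167. Without the filter its limma adjusted p was 0.177. A difference between the groups was not detectable at this depth.

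The promoters of *Icam1*, the called gene with a promoter sequence, and of *Sele*, chosen after its values were seen, are printed to show which motifs sit before their starts. Both are the 250 bases before the RefSeq transcription start on the plus strand of GRCm38.p6, at chr9:21015690-21015939 and chr1:164047984-164048233, upstream of the first exon and with no annotated exon base inside. Capitals mark matches to the motifs named after them.
Icam1: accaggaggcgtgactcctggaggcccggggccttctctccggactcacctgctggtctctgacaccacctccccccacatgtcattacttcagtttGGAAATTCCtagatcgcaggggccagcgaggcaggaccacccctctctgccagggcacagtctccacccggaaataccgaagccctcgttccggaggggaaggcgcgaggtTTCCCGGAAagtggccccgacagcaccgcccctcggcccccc
Sele: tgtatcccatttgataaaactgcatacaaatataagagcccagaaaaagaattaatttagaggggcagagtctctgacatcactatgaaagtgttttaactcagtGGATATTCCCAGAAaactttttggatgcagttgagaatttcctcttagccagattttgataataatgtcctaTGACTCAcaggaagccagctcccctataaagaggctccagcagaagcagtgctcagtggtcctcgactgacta
In *Icam1* the capitals are GGAAATTCC at positions -153 to -145 and TTCCCGGAA at -42 to -34, counted back from -1 at the last base before the start. In *Sele* they are GGATATTCC at -145 to -137, the overlapping TTCCCAGAA at -140 to -132, and TGACTCA at -73 to -67.

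Motifs were searched on both strands. GGANNTTCC, a form of the site bound by NF-κB, was present in 3.59% of 32851 RefSeq promoters of this length, the STAT form TTCNNNGAA in 7.02% and the AP-1 form TGANTCA in 6.75%. The letters of GGANNTTCC and TTCNNNGAA were chosen after these sequences had been seen. A second form of the site, the κB consensus (3.9% of promoters), an interferon response motif (2.98%) and the ETS form CCGGAAG (6.91%) had no match in either window. The RefSeq table held 6 of the 10 genes. Of the other 4 it held, *Selp* had 1 match, TGATTCA at -139 to -133, and *Cldn5*, *Ocln* and *Tjp1* had none in their 250 bases. A match of letters is a description of the sequence and not evidence of a bound site.

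Among the junction genes, *Cldn5* (ENSMUSG00000041378, chromosome 16, 18776847 to 18778262, plus strand), the main claudin of retinal endothelium, varied most widely in LD. It was at 4.49, 6.42, 7.62, 4.22 and 5.15 FPKM in the NL retinas and at 7.88, 13.7, 14.4, 8.12 and 3.998 FPKM in the LD retinas. LD-4 and LD-6 were high, and LD-8 lay below all NL retinas. The mean was 5.58 ± 1.42 FPKM in NL and 9.62 ± 4.37 in LD (SD, n = 5 each). Its log2 fold change of 0.67 in limma (SE 0.32, 95% interval -0.04 to 1.38, adjusted p = 0.154) did not pass the test.

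*Ocln* (ENSMUSG00000021638, chromosome 13, 100496507 to 100552718, minus strand), the tight junction protein occludin, was at 0.709, 0.368, 0.525, 0.457 and 0.386 FPKM in the NL retinas and 0.389, 0.783, 0.858, 0.572 and 0.5002 FPKM in the LD retinas. The groups overlapped over most of their range, with LD-4 and LD-6 again the highest. The limma log2 fold change was 0.28 (SE 0.23, 95% interval -0.24 to 0.79, adjusted p = 0.431). It was -0.23 when levels were centred on 15 endothelial genes.

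*Tjp1* (ENSMUSG00000030516, chromosome 7, 65296165 to 65527781, minus strand), the scaffold ZO-1, was the most abundant of the 10 genes and the least variable. Its NL retinas were at 24.2, 23.6, 22.8, 23.1 and 24.6 FPKM and its LD retinas at 27.0, 27.8, 25.6, 27.2 and 23.9 FPKM. Only LD-8 fell inside the NL range. The mean went from 23.7 ± 0.735 to 26.3 ± 1.56 FPKM (SD, n = 5 each), with a limma log2 fold change of 0.15 (SE 0.05, 95% interval 0.05 to 0.26, adjusted p = 0.0359). This missed both thresholds, and the exact permutation p was 0.0238. At an adjusted p under 0.05 with no fold minimum *Tjp1* would be the 1 junction gene called, where 27.8% of all genes tested were, and centring on the endothelial genes turned its value to -0.35. Its adjusted p in limma was 0.00157 without the library factor, the lowest of all settings, and the highest was 0.225. The log2 fold change was at most 0.28 in any of them.

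*Cdh5* (ENSMUSG00000031871, chromosome 8, 104101625 to 104144511, plus strand), which encodes VE-cadherin of the endothelial adherens junction, was at 0.690, 0.683, 0.785, 0.448 and 0.470 FPKM in the NL retinas. The LD retinas were at 0.761, 1.21, 1.16, 0.846 and 0.406 FPKM. LD-8 was the lowest of all 10 and LD-4 the highest. The log2 fold change in limma was 0.40 (SE 0.27, 95% interval -0.20 to 1.00, adjusted p = 0.320), and -0.11 after the centring.

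*Pecam1* (ENSMUSG00000020717, chromosome 11, 106654217 to 106750628, minus strand), a homophilic receptor of endothelial contacts that platelets and leukocytes also carry, was at 0.901, 0.831, 1.34, 0.794 and 0.759 FPKM in the NL retinas. Its LD retinas were at 0.658, 1.33, 1.61, 0.754 and 0.693 FPKM. LD-1, LD-7 and LD-8 lay below every NL retina and LD-6 above, so the LD values spanned the NL range with only LD-4 inside it. The limma log2 fold change of 0.06 (SE 0.26, 95% interval -0.52 to 0.64, adjusted p = 0.900) had no stable sign. It was -0.05 without LD-4, -0.12 without LD-6, -0.33 without both and -0.45 after the centring.

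*Plvap* (ENSMUSG00000034845, chromosome 8, 71497765 to 71511752, minus strand) encodes the protein that forms diaphragms in fenestrated and leaky endothelium and is scarce in mature barrier vessels. It was at 3.34, 4.24, 3.67, 3.25 and 3.65 FPKM in the NL retinas and 6.60, 3.80, 5.65, 6.43 and 5.20 FPKM in the LD retinas. All LD retinas but LD-4 lay above the NL range. Means were 3.63 ± 0.389 FPKM in NL and 5.54 ± 1.13 in LD (SD, n = 5 each), and the limma log2 fold change was 0.58 (SE 0.14, 95% interval 0.26 to 0.89, adjusted p = 0.0120, exact permutation p = 0.0159), which passed neither threshold. The kit did not mark strand and *Plvap* overlaps *Gtpbp3* on the other strand by 1819 bases (9.98 FPKM in NL, 9.27 in LD), so reads from that stretch cannot be told apart. After centring on the endothelial genes the log2 fold change was 0.07. Without the library factor the adjusted p in limma was 0.00300, and over all settings it ran from 8.37e-04 to 0.824. The log2 fold change was at most 0.73 in any of them.

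**Figure D2:**
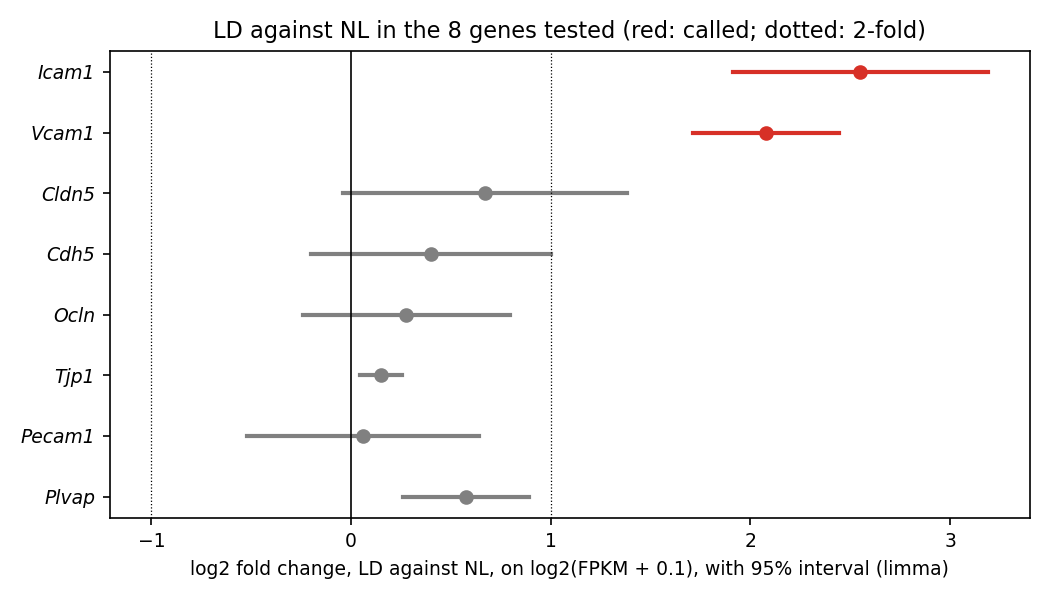
Log2 fold change of LD against NL, on the log2(FPKM + 0.1) scale, for the 8 tested genes, with the 95% interval from limma. *Icam1* (2.55) and *Vcam1* (2.08) lie past the 2-fold line with their intervals, and *Cldn5*, *Ocln*, *Tjp1*, *Cdh5*, *Pecam1* and *Plvap* lie between 0.06 and 0.67. Centring on the endothelial list turned *Ocln*, *Tjp1*, *Cdh5* and *Pecam1* below 0.

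Per kilobase, the order of levels differed between the groups. In NL it ran *Tjp1*, *Cldn5*, *Plvap*, *Vcam1*, *Pecam1*, *Cdh5*, *Ocln*, *Icam1*, *Sele*, *Selp*, with *Cldn5* overlapping *Plvap*, each gene from *Vcam1* to *Icam1* overlapping its neighbour, and *Sele* overlapping *Selp*. In LD *Vcam1* overlapped *Cldn5* and *Plvap* at the upper level, and *Icam1* stood at the head of the lower group, where it overlapped *Pecam1*. Within single retinas the ratio of *Icam1* to *Cdh5* FPKM was 0.129 to 0.606 in NL and 1.00 to 5.02 in LD, and that of *Vcam1* to *Cdh5* 1.41 to 2.71 and 3.84 to 16.4. Neither ratio overlapped between the groups, nor did *Icam1* and *Vcam1* themselves. The ratio of *Icam1* to *Vcam1*, both adhesion genes, did not overlap either, at 0.0920 to 0.238 in NL and 0.261 to 0.451 in LD. The ratio of *Cldn5* to *Cdh5*, a pair of junction genes, overlapped, at 6.51 to 10.9 in NL and 9.60 to 12.4 in LD. That of *Cldn5* to *Tjp1* did too, at 0.183 to 0.334 and 0.167 to 0.564. The share of other gene pairs with no overlap was not computed.

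The endothelial label was checked with 15 identity genes, led in level by the receptors *Kdr* (30.0 to 49.8 FPKM) and *Flt1* (7.21 to 8.15), which bind VEGF. All 15 were tested and 0 were called, with a median log2 fold change of 0.58 against -0.01 for all genes tested. *Kdr* (0.70, adjusted p = 0.00876 in limma) and *Egfl7* (0.70, adjusted p = 0.00943) passed the p threshold but not the fold. The summed level was 44.5 to 54.4 FPKM in NL and 58.2 to 92.3 in LD, and *Kdr*, which retinal neurons also make, supplied most of it. The mean of the 15 genes relative to NL, in log2, was 0.33, 0.85, 0.95, 0.28 and 0.12 in the LD retinas, highest in LD-4 and LD-6. These 2 libraries were also the highest LD retinas in *Cldn5*, *Ocln*, *Cdh5* and *Pecam1* and the lowest in *Icam1*, *Vcam1* and *Sele*. The part of endothelial content in the junction values was not tested apart from the centring.

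Centred on the mean of these 15 genes in each retina, *Icam1* had a log2 fold change of 2.05 (limma, adjusted p = 0.00281, range over all settings 5.75e-05 to 0.00387) and *Vcam1* of 1.57 (adjusted p = 0.00195, range 8.96e-07 to 0.00256). Both were thus still called. This centring moved the median of all genes to -0.52, and the genes called to 483 higher and 1381 lower, from 1013 and 582. Without LD-4 and LD-6 *Icam1* was at 2.86, and *Cldn5*, *Cdh5* and *Ocln* at 0.22, 0.08 and 0.01. Without LD-8, *Cldn5* was at 0.95 (adjusted p = 0.0159 in limma), *Cdh5* at 0.62 (adjusted p = 0.0616) and *Ocln* at 0.33 (adjusted p = 0.390), none of them called.

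**Figure D3:**
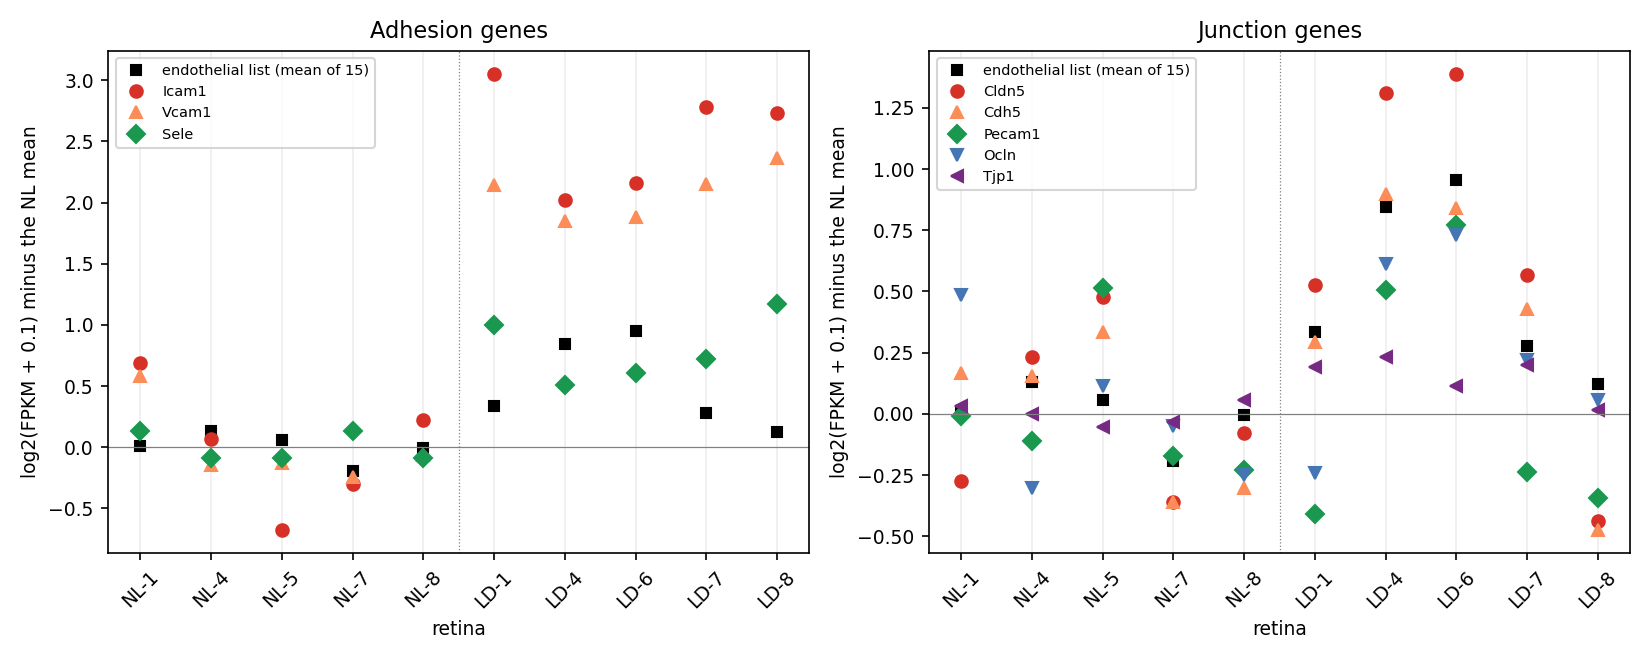
Difference of each retina from the NL mean, in log2(FPKM + 0.1), for *Icam1*, *Vcam1* and *Sele* (left) and the 5 junction genes (right), each beside the mean of 15 endothelial identity genes (black squares). On the left the LD points of *Icam1* (2.02 to 3.05) and *Vcam1* (1.85 to 2.37) lie far above the squares, and on the right *Cldn5* and *Cdh5* are high where the squares are, in LD-4 and LD-6.

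Other adhesion genes that endothelium can carry mostly had positive log2 fold changes. Of 15, 14 were tested, with 3 called higher, 1 lower and a median log2 fold change of 0.36. The value was positive in 13 of the 14, against 11900 of all 24508 genes tested. At an adjusted p under 0.01 in limma with no fold minimum, 6 were higher and 1 lower, against 2280 and 1898 of all genes tested. *Cd44*, a hyaluronan receptor, rose from 1.85 to 14.9 FPKM (log2 fold change 2.95, adjusted p = 4.86e-08 in limma). *Madcam1*, a mucosal addressin, rose from 0.140 to 0.590 FPKM (1.50, adjusted p = 0.00692; at least 0.1 FPKM in 3 NL retinas), and *Cd34*, a sialomucin of endothelium and progenitors, from 0.460 to 1.08 (1.05, adjusted p = 0.00221). *Jam2*, a junctional adhesion molecule, fell from 28.7 to 12.8 FPKM (-1.16, adjusted p = 8.45e-06).

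The receptors on the leukocyte side include the partners of *Icam1*. Of 12 such genes 10 were tested, with 3 called higher, 0 lower and a median of 0.74. The called genes were the integrin chains *Itgax* (0.0674 to 0.839 FPKM, log2 fold change 2.45), *Itgb2* (0.381 to 2.29, 2.38) and *Itgam* (0.154 to 0.658, 1.55), of which *Itgb2* with *Itgam* makes Mac-1. *Itgax* reached 0.1 FPKM in 1 NL retina and so passed the filter only through LD. The VLA-4 chain *Itga4* (9.39 to 11.8 FPKM, log2 fold change 0.26, adjusted p = 0.439 in limma) and the selectin ligand *Selplg* (0.628 to 0.701, 0.11, adjusted p = 0.789), named after their values were seen as the partners of *Vcam1* and the selectins, did not pass the test. The other VLA-4 chain, *Itgb1*, passed the p threshold but not the fold (12.0 to 19.9 FPKM, 0.71, adjusted p = 1.10e-04 in limma). The LFA-1 chain *Itgal* passed neither (0.0839 to 0.222 FPKM, 0.76, adjusted p = 0.0359). These integrin chains were also named after their values were seen. Microglia, the resident macrophages of the retina, carry these integrins as well as blood leukocytes do.

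Of the ligands that act on endothelium, 7 of 9 were tested, with 1 called higher, 0 lower and a median of 0.76. *Tnf*, which induces *Icam1*, *Vcam1* and *Sele* in cultured endothelium, was called (0 reads in all NL libraries, 5 to 18 a library in LD). It passed the filter on low values only through the LD retinas, so its call and the list's count are no independent support. *Vegfa*, a permeability factor, was at 46.4 FPKM in NL and 55.5 in LD (log2 fold change 0.26, adjusted p = 0.0802 in limma), and *Angpt2*, which destabilises vessels, at 0.814 and 0.627 FPKM (-0.35, adjusted p = 0.185).

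The remaining junction genes were mostly not called. Of 17 other tight junction genes, 16 were tested, with 0 called higher and 1 lower, and the median was 0.08. *Cldn7*, an epithelial claudin, was that gene (0.532 to 0.216 FPKM, log2 fold change -1.03, adjusted p = 0.00891 in limma). *Cldn12* was at 16.6 and 21.2 FPKM (0.34, adjusted p = 0.0360). *Lsr*, named after its values were seen, was at 1.28 and 2.62 FPKM (0.96, adjusted p = 3.50e-04 in limma), past the p threshold and just under 2-fold. Of 12 adherens and gap junction genes, 11 were tested, with 1 called higher, 0 lower and a median of 0.21. *Cdh3*, P-cadherin, was called (0.503 to 1.85 FPKM, 1.67, adjusted p = 4.61e-04 in limma), while the catenins *Ctnnb1* (60.9 to 68.0 FPKM, 0.16) and *Ctnna1* (36.4 to 42.3, 0.21) were not. *Cdh2*, also named after its values were seen, passed the p threshold but not the fold (16.9 to 26.4 FPKM, 0.62, adjusted p = 0.00161 in limma).

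Barrier transport and caveola genes gave 1 call among 13 tested, with a median of 0.18. *Cavin1*, a caveola coat protein, rose from 2.57 to 6.05 FPKM (log2 fold change 1.14, adjusted p = 0.00164 in limma). The glucose transporter *Slc2a1* was at 52.2 and 49.8 FPKM (-0.07, adjusted p = 0.538). The amino acid transporter *Slc7a5* was at 17.1 and 34.1 FPKM (0.99, adjusted p = 1.10e-04), past the p threshold and just under 2-fold.

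Norrin, made by Müller glia, acts through *Fzd4* with *Lrp5* and *Tspan12* to keep the retinal barrier. Of 12 genes of Norrin and Wnt barrier signalling, all tested, 1 was called higher, 0 lower, and the median was 0.08. That gene was *Ndp*, which encodes Norrin, at 3.67 FPKM in NL and 15.8 in LD (log2 fold change 2.06, adjusted p = 2.31e-06 in limma). *Adgra2*, a co-receptor for Wnt7, was at 9.53 and 9.22 FPKM (-0.06, adjusted p = 0.747). *Fzd4*, named after its values were seen as the Norrin receptor, was at 3.92 and 2.67 FPKM (-0.53, adjusted p = 0.00519), under the fold threshold. Its partners, also named after their values were seen, went the other way. *Tspan12* was at 2.66 and 3.63 FPKM (0.44, adjusted p = 0.00620 in limma), under the fold threshold, and *Lrp5* at 1.63 and 2.63 (0.63, adjusted p = 0.0139), which passed neither threshold.

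**Figure D4:**
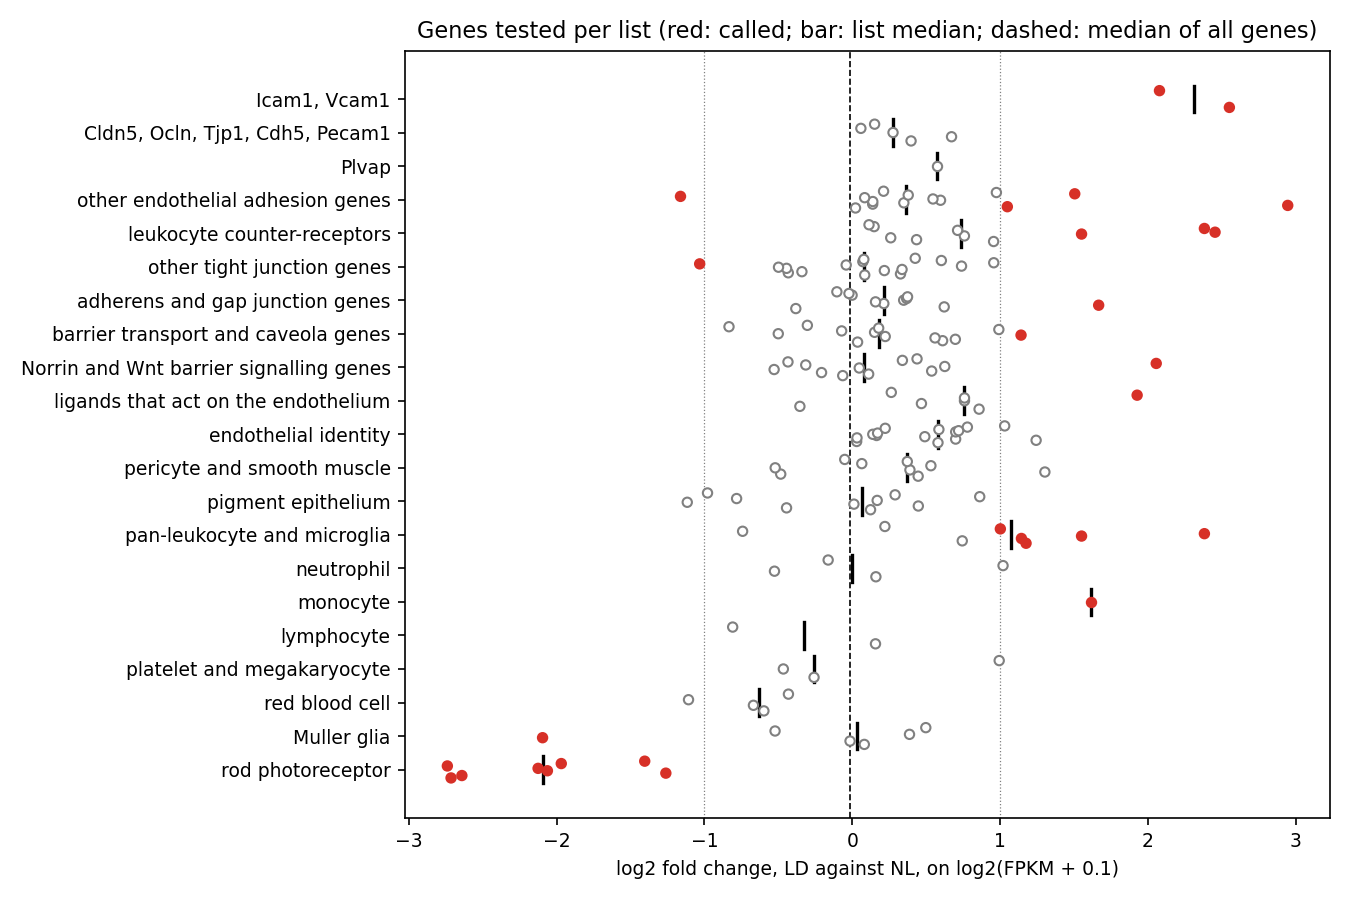
Log2 fold change of LD against NL, on the log2(FPKM + 0.1) scale, for every tested gene of each list, 1 row a list, with filled points for called genes and a bar at the median. *Icam1* and *Vcam1* are both filled and above 2, the junction row holds no filled point, and the 8 rod genes all lie below -1.

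Markers of other cells moved beside these genes, and their part in the results was not tested. The pan-leukocyte and microglia list had 5 of 8 genes called higher and 0 lower, with a median of 1.07, led by *Itgb2*, *Itgam*, *Aif1* (0.873 to 2.23 FPKM) and *Cx3cr1* (1.55 to 3.62). Its sum was 8.54 to 11.7 FPKM in NL and 10.8 to 24.2 in LD. In the LD retinas it was 24.2, 15.03, 15.7, 21.0 and 10.8 FPKM. LD-1 and LD-7, with the highest sums, were also the highest in *Icam1*, LD-4 and LD-6 were lower in both, and LD-8 had the lowest sum with the highest *Vcam1*. Of the markers in the list that were not called, *P2ry12* was at 2.03 FPKM in NL and 1.32 in LD (log2 fold change -0.74, adjusted p = 0.122 in limma) and *Tmem119* at 1.63 and 1.95 (0.22, adjusted p = 0.528). The remaining marker not called, *Csf1r*, was at 2.86 and 5.01 FPKM (0.74, adjusted p = 0.0412 in limma). All of these were named after their values were seen. *Ptprc*, also called, reached 0.1 FPKM in every LD retina but in 2 NL retinas.

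Of 5 monocyte markers only *Plac8* was tested, and it was called higher (5 to 12 reads in LD, 0 or 1 in NL), having passed the filter only through the LD retinas. *Ly6c2* had no read in NL and 4 to 17 in LD, *Chil3* had at most 1 read in any retina, and the list summed to 0.0359 to 0.0624 FPKM in NL and 0.384 to 0.672 in LD. None of the 4 tested of 8 neutrophil markers was called. *Camp* was at 0.182 and 0.184 FPKM and *S100a9* at 0.171 and 0.170. *S100a8* was at 0.0812 and 0.240 FPKM (log2 fold change 1.02, adjusted p = 0.121 in limma) and *Ngp* at 0.188 and 0.0944 (-0.53, adjusted p = 0.130). *Ly6g*, *Cxcr2*, *Mpo* and *Elane* had at most 3 reads in every retina, and the list sum was 0.361 to 0.858 FPKM in NL and 0.429 to 1.04 in LD.

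Blood markers gave no call. Of the lymphocyte list 2 of 7 were tested, with *Cd79a* at 0.421 and 0.226 FPKM, and the sum was 0.680 to 1.09 FPKM in NL and 0.462 to 0.776 in LD. Of the platelet list 3 of 6 were tested, with *Gp1ba* at 1.37 and 1.13 FPKM and *Itga2b* at 0.652 and 1.42, and a sum of 2.12 to 2.95 FPKM in NL and 2.45 to 3.31 in LD. *Itga2b* (log2 fold change 0.99, adjusted p = 0.00101 in limma) was past the p threshold and just under 2-fold. Of the red blood cell list 4 of 5 were tested, with *Hba-a1* at 18.9 and 12.3 FPKM and *Hbb-bs* at 4.03 and 1.83, and a sum of 18.3 to 37.5 FPKM in NL and 8.38 to 24.5 in LD.

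The 9 pericyte and smooth muscle genes, all tested, had 0 called and a median of 0.37. *Rgs5* was at 5.07 and 6.78 FPKM and *Pdgfrb* at 2.55 and 2.73, and the sum was 9.54 to 14.6 FPKM in NL and 9.90 to 19.0 in LD, highest in LD-4 and LD-6. Pigment epithelium, an outer layer that can adhere to a dissected retina, had 0 of 10 genes called. *Ttr* was at 57.6 and 68.3 FPKM and *Rpe65* at 12.9 and 7.36, and the sum was 51.4 to 155 FPKM in NL and 60.4 to 113 in LD. Of 6 Müller glia genes 1 was called, lower, *Glul* (711 to 165 FPKM, log2 fold change -2.09), with *Dkk3* at 240 and 241 FPKM and a list median of 0.03. *Slc1a3* (26.2 and 37.5 FPKM, 0.50, adjusted p = 0.0109 in limma) and *Kcnj10* (12.4 and 17.1, 0.39, adjusted p = 0.213), named after their values were seen, were not called. The list summed to 1048 to 1281 FPKM in NL and 506 to 714 in LD, a difference carried mostly by *Glul*.

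As a description of pattern across the 10 retinas, 12428 tested protein-coding genes whose mean reached 1 FPKM were ranked by Pearson's r with *Icam1*. The nearest were *Tlr2* (r = 0.990), *Fbxw11* (0.988) and *Ddx60* (0.987), and the nearest to *Cldn5* were *Suox* (0.940), *Adgrg1* (0.939) and *Txnip* (0.933). The points share the 2 light groups, so for *Icam1* such an r mostly restates the difference between them.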

How the data were processed

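Samples of neural retina, 5 NL and 5 LD, from BALB/c mice were compared by RNA-seq of total RNA (TruSeq kit that does not mark strand). The authors deposited 1 table of FPKM for 54532 genes. Per the labels, the submitters' processing notes name Bowtie2 2.0.6, TopHat2 2.0.9 and the build mm8. The positions in the table are those of GRCm38 (53585 of 54532 genes, and all 10 described here, have the same position in GENCODE M21), and the counter is not given in the sources used here. FPKM times length gave whole multiples of 1 read for all values, within a tolerance of 0.001, and depth was taken from these. The library size that the deposited FPKM imply was the reads summed over genes times a factor, 0.951 to 0.968 in NL and 1.04 to 1.07 in LD, and the deposited values were tested with no further scaling. A pseudocount of 0.1 FPKM was added, genes that reached 0.1 FPKM in 5 or more retinas were kept, and LD was tested against NL with limma 3.58.1 (R 4.3.3, intensity trend, Benjamini-Hochberg adjustment). The fold changes are on the log2(FPKM + 0.1) scale and understate the change of low genes. Single genes were checked with two-sided exact permutation tests (Python 3.11.15).

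The 10 genes, the 18 other lists (7 of pathways, 11 of cell type markers) and the rule below were chosen with earlier results of these data known. Of each list the called genes with the largest change were named, up to 4, and where fewer than 2 were called, the 2 with the highest mean FPKM, and some genes that the rule names are not reported here. *Esam*, *Itgam*, *Itgb2* and *Cldn19* were each in 2 lists. The labels give no batch or date. Intervals from counts and limits from a count of 0 cover counting error only. The alternatives were 24 planned settings and 1 added after seeing the data (without LD-4 and LD-6).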

Additional observations from a re-analysis of the deposited data

Results flagged for a closer look

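Among 19 groups of 5 retinas examined for a single retina far from the others, 2 stood out, where chance gives about 1 in 20 groups. *Vcam1* in NL-1 was at 1.87 FPKM, with the nearest NL retina at 1.16 FPKM and the lowest at 1.01. *Pecam1* in NL-5 was at 1.34 FPKM, with the nearest NL retina at 0.901 FPKM and the lowest at 0.759.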

How the results depend on the processing

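Under all 25 settings 2 adhesion genes were called, *Icam1* (log2 fold change 1.19 to 3.02) and *Vcam1* (1.54 to 2.25). Junction genes gave 0 calls in 24 of them and 1, *Tjp1*, at an adjusted p under 0.05 with no fold minimum, where *Plvap* was called too and 6818 genes in all. The genes called over the whole table numbered 816 at a pseudocount of 1 FPKM, which shrinks the fold of low genes, and 1379 to 1603 with 1 retina left out, against 1595. With each close library pair averaged, 4 NL and 3 LD samples gave 1076 genes called. *Icam1* (adjusted p = 0.00251 in limma) and *Vcam1* (adjusted p = 9.57e-04) were among them, and *Cldn5* was not (adjusted p = 0.428). Without the library factor in the deposited FPKM, the median of all genes was 0.11 and 72.1% of the calls were higher, against 63.5%, and centred on the endothelial list 25.9%. That centring reversed the sign of *Selp* (-0.11), *Ocln* (-0.23), *Tjp1* (-0.35), *Cdh5* (-0.11) and *Pecam1* (-0.45). *Pecam1* also changed sign with 1 retina left out (-0.12 to 0.19) and without LD-4 and LD-6 (-0.33), a setting chosen after seeing the data. The cause was not tested. A filter of 1 FPKM removed *Ocln*, *Cdh5* and *Pecam1* from the test.

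Retinas with the same number did not deviate together (r -0.0893 to 0.0656 in 4 pairs, -0.0708 to 0.107 in 21 others, with 1 retina closest to its own number). The labels do not say whether they share anything beyond the number, and these correlations cannot settle it. With the replicate number as a block, retinas 1, 4, 7 and 8 gave 808 genes called, 550 higher and 258 lower, against 813 higher and 369 lower in the same 8 without it.

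Depth limits the selectins: with at most 9 reads a library, *Sele* and *Selp* did not pass the filter on low values, and the fitted *Sele* value moved from 0.11 to 2.66 with the pseudocount.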
